A study of Mus musculus with 7 samples.

Results

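The Shox2 locus was taken as all peaks with their midpoint in mm9 chr3:66000000-67300000, a stretch of 1.3 Mb around the gene Shox2. It held 98 of the 33915 Shox2 limb peaks, 19 of the 15091 Shox2 palate positions and 37 of the 33915 Pbx limb peaks. The study's list of co-occupied regions had 37 of its 8999 regions here. All 37 were identical in start and end to the Shox2 limb peaks of the locus that overlapped Pbx, so that list adds no separate measurement. The window had been selected on its peak counts in these same lists, so every count and density in it is a description without a test.

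Each library was a chromatin immunoprecipitation with sequencing (ChIP-seq) of freshly dissected mouse embryo tissue at E12.5 (embryonic day). Shox2 was precipitated from limb and from palate of embryos labelled Shox2-HA, whose Shox2 protein carries the HA epitope, with an antibody against HA. Pbx was precipitated from limb with an antibody against Pbx, for which the labels name no one family member and no genotype. Each group had 1 library, the labels do not say how many embryos were pooled, and 4 further libraries of the series were not analysed here, including the input and the anti-HA ChIP of embryos without the tag. The limb lists of Shox2 and Pbx have the same number of lines, and the reason is not stated. The lists give positions alone, so read depth is unknown and no peak has a height. Tissue identity cannot be checked from positions, and a difference between libraries cannot be told apart from a difference between tissues.

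Shox2 is a homeodomain transcription factor of the short stature homeobox family. In the mouse it is needed for the proximal limb skeleton and for the anterior palate. Pbx proteins are TALE-class homeodomain factors that often bind DNA next to other homeodomain proteins. A transcription factor that binds around its own gene may take part in its own regulation, which is the question this locus raises. The lists hold no measure of Shox2 expression, so regulation was not tested.

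The position of the gene was taken as 66780000 bp, which is given to the nearest 10 kb and was not checked against an mm9 annotation. It is called the Shox2 position below. In the RefSeq annotation of GRCm38.p6, which was used for names, order and strand only, the genes run in ascending order as Veph1, Ptx3, Shox2 and Rsrc1. Veph1 encodes a pleckstrin homology domain protein, Ptx3 a secreted pentraxin of innate immunity, and Rsrc1 a serine- and arginine-rich protein linked to splicing. By order in that annotation, 4 genes lie between Ptx3 and Shox2. Of these, 0 are protein coding, 2 are long non-coding RNAs and 2 are pseudogenes. Whether Veph1 reaches past Ptx3 toward Shox2 was not checked. Shox2 is on the minus strand, so lower positions lie downstream of it and toward Ptx3, and higher positions lie upstream and toward Rsrc1.

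The sequence around the start of Shox2 is shown because autoregulation is most simply asked there. It is taken from RefSeq in GRCm38.p6 (chr3:66981722-66982021, minus strand, 250 bases before to 50 after the annotated start). These coordinates are not on the scale of the mm9 peaks, and no peak was placed on this sequence. Capitals mark the letters TAAT or ATTA, the core bound by many homeodomains, and TGAT or ATCA, the core bound by Pbx, each pair being the same motif read on either strand.
Shox2 promoter: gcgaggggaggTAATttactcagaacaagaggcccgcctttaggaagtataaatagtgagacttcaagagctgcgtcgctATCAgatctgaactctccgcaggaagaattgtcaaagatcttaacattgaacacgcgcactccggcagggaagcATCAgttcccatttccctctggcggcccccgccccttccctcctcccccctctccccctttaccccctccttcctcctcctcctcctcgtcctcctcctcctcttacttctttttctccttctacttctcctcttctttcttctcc
The homeodomain core occurred at 1 place, from base 12 counted from the 5′ end, and the Pbx core at 2 places, from bases 81 and 155, with no overlap between the motifs. Such short motifs are common: 58.0% of 32851 RefSeq promoter windows of the same 300 bases held the homeodomain core and 72.9% held the Pbx core. The matches are a description of the letters and say nothing of binding.

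Shox2 limb peaks were far denser in the locus than elsewhere, and palate Shox2 and Pbx peaks were denser by a smaller factor. Limb Shox2 had 75.4 peaks per Mb in the locus and 13.1 per Mb in the rest of the genome, a 5.74-fold higher density (95% exact Poisson interval 4.66 to 6.99). Palate Shox2 had 14.6 per Mb in the locus and 5.86 in the rest, which is 2.50-fold (1.5 to 3.90). Pbx had 28.5 and 13.2 per Mb, which is 2.16-fold (1.52 to 2.98). These intervals cover counting error only and treat peaks as independent, which neighbouring peaks are not. Chromosome 3 is itself rich in limb Shox2 peaks, with 17.2 per Mb outside the locus, against which the locus was 4.39-fold denser.

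Windows of 1.3 Mb, started every 100 kb along each chromosome, place these counts among the rest of the genome. Of 25448 windows that did not touch the locus, 6 held at least 98 limb Shox2 peaks, and these 6 overlapped each other on chromosome 18. The median window held 14 limb Shox2 peaks. For palate Shox2, 1921 windows (7.55%) held at least the 19 positions of the locus, and for Pbx 2670 windows (10.5%) held at least 37 peaks. The locus thus stood at the extreme of the limb Shox2 list, and within the upper part of the other 2 lists.

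**Figure D1:**
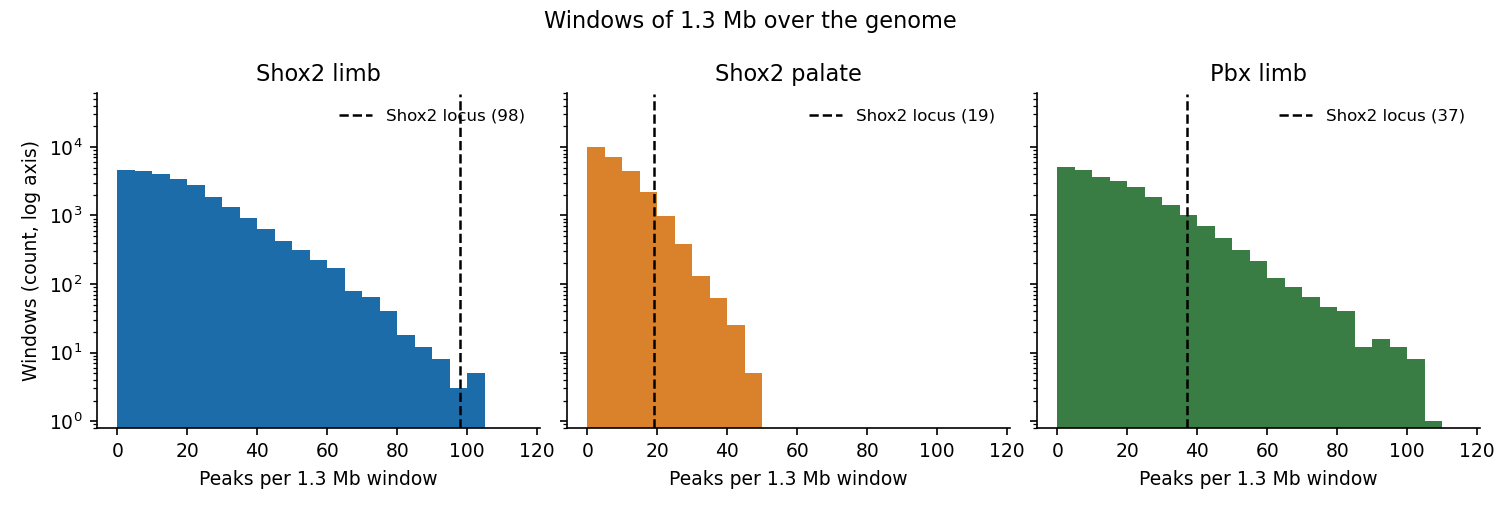
Histograms of the number of peaks per window of 1.3 Mb over the genome, without windows that touch the locus (x axis, peaks per window; y axis, number of windows on a log axis), for each of the 3 lists. Dashed lines mark the Shox2 locus at 98 limb Shox2, 19 palate Shox2 and 37 Pbx peaks; only the first lies at the end of its distribution.

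The peaks were not spread evenly around the gene. Of the 98 limb Shox2 peaks, 86 (87.8%) lay below the Shox2 position, on the side of Ptx3, and 12 lay above it, on the side of Rsrc1. The 780 kb below held 110.3 peaks per Mb and the 520 kb above held 23.1 per Mb. Pbx had 32 peaks below and 5 above (41.0 and 9.62 per Mb). Palate Shox2 had all 19 positions below and 0 above. All 3 lists therefore had most of their peaks on the same side. By gene order, GRCm38.p6 has no protein-coding gene there between Shox2 and Ptx3. For the side above the Shox2 position, the rest of the genome had 13.1 limb Shox2 and 13.2 Pbx peaks per Mb. The rest of chromosome 3 had 17.2 and 11.8 per Mb. With 12 and 5 peaks and no interval on that side, no difference from these values can be read.

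In bins of 50 kb, limb Shox2 reached its highest count, 11 peaks, in a pair of bins. The first holds the Shox2 position and reaches from 30 kb below to 20 kb above it, and the second lies 280 to 230 kb below it. The bins from 480 to 430 kb and from 430 to 380 kb below the gene came next with 9 peaks each. Pbx was highest with 4 peaks in the bins 480 to 430 kb and 280 to 230 kb below the gene, and 5 bins had 3 each. Palate Shox2 was highest with 4 positions 180 to 130 kb below, a bin in which limb Shox2 also had 4 peaks, followed by 3 positions each at 430 to 380 kb and 330 to 280 kb below. Limb Shox2 and Pbx thus shared a crowded bin at 280 to 230 kb below the gene, where the palate list had 0 positions. That 0 depends on the bin edge at 66550000 bp, since the palate position 66550836 bp lay just past it. This position was 388 bp from a limb Shox2 peak and 204 bp from a Pbx peak, both in the next bin. Between neighbouring limb Shox2 peaks of the locus, the widest gap, 122 kb, ran from 66971183 to 67092851 bp. The second, 84.9 kb, began at 66789433 bp, above the Shox2 position.

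**Figure D2:**
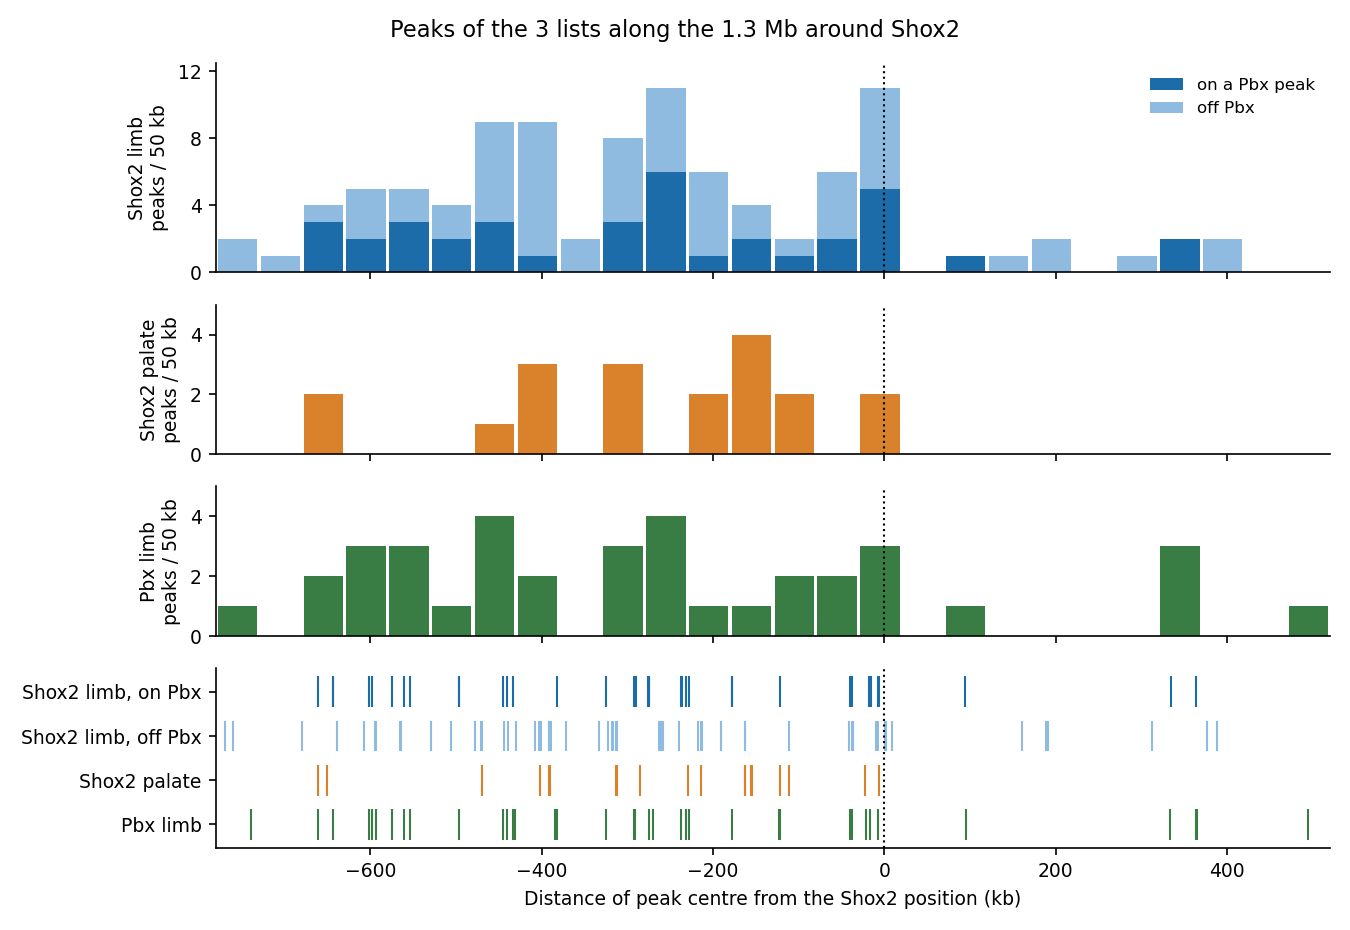
Counts of peaks in bins of 50 kb for limb Shox2 (dark, on a Pbx peak; light, off Pbx), palate Shox2 and limb Pbx, and below them the centre of every peak, against distance from the Shox2 position in kb (negative toward Ptx3, dotted line at 0). Most peaks of each list lie to the left of the line, with 86, 19 and 32 peaks below the Shox2 position.

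Within 10 kb of the Shox2 position there were 8 limb Shox2 peaks, 1 Pbx peak and 1 palate Shox2 position. Since RefSeq gives Shox2 a length of 10049 bp and the Shox2 position is rounded, it could not be told which of these lie in the gene, its promoter or its flanks. A group of 5 limb peaks ran from 66770479 to 66773629 bp, 9.36 to 6.70 kb below the Shox2 position at their centres. The last 2 of them, chr3:66772527-66772732 and chr3:66772966-66773629, overlapped the nearest Pbx peak, chr3:66772597-66773770. The nearest palate position, 66774090 bp, fell 461 bp past the last of these limb peaks and 320 bp past the Pbx peak, and so in neither. The limb peak closest to the Shox2 position was chr3:66780545-66781091, centred 0.818 kb above it, with chr3:66781297-66781646 beside it, and both were off Pbx and held no palate position. The last of the 8 was chr3:66789215-66789433, the final limb peak before the gap of 84.9 kb.

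None of these 8 peaks stood at the top of the limb list. Place in a list is given here as the percent of lines from the top of the file, since the files carry no score and do not state that their order is a ranking. The 8 peaks stood between 13.8% and 81.2% of the way down, with widths of 206 to 664 bp. Place can be read only coarsely: 13 pairs of locus peaks stood on consecutive lines, and 4 peaks spread over the locus took the consecutive lines 16144 to 16147 in ascending position.

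Farther below, 2 more groups lay within 50 kb of the Shox2 position. At 17.5 to 15.7 kb, the limb peaks chr3:66762372-66762709, chr3:66763062-66763755 and chr3:66764151-66764394 all lay on 1 Pbx peak, chr3:66761833-66764494, which at 2662 bp was the widest Pbx peak of the locus. At 40.8 to 36.2 kb, 6 limb peaks stood between 66739106 and 66743991 bp, of which 2 were on Pbx. In all, 17 limb Shox2 peaks, 5 Pbx peaks and 2 palate positions lay within 50 kb of the Shox2 position, and 7 of the 17 were on Pbx.

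**Figure D3:**
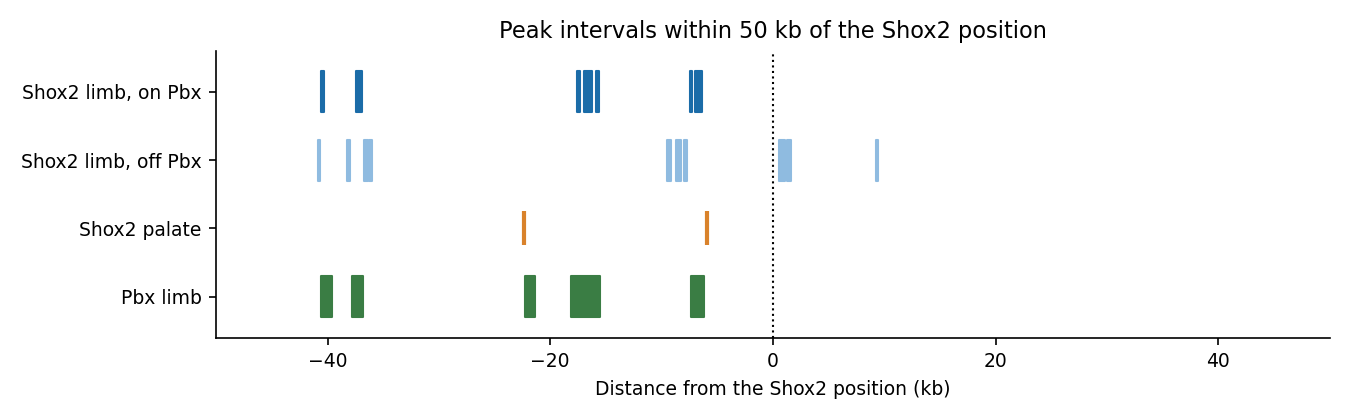
Peak intervals of limb Shox2 (on and off Pbx), palate Shox2 and limb Pbx within 50 kb of the Shox2 position (x axis, distance in kb, negative toward Ptx3; dotted line at 0). The 17 limb Shox2 peaks form groups below the Shox2 position and 3 peaks above it, and the 5 Pbx intervals all lie below it.

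Overlap of Shox2 and Pbx in the limb was more frequent in the locus than over the whole list. Of the 98 limb Shox2 peaks, 37 (37.8%, 95% exact binomial interval 28.2 to 48.1%) overlapped a Pbx peak by at least 1 bp, against 26.5% of the whole list. Limb Shox2 peaks of the locus were also wider, with a median of 327 bp (quartiles 243 and 507 bp) against 261 bp (198 and 374 bp). With every peak set to 200 bp around its centre, 18.4% in the locus (interval 11.3 to 27.5%) and 16.4% in the whole list overlapped Pbx. Little of the gap was left in that setting, but it remained in others. When at least 50% of the Shox2 peak had to be covered, the shares were 36.7% (interval 27.2 to 47.1%) and 25.9%. In the first 50% of each list they were 43.9% (interval 30.7 to 57.6%) and 24.4%. The 200 bp setting also depends on the distance between centres, so the part of width in the gap was not tested. Pbx peaks were 2.16-fold denser in the locus than in the rest of the genome, and the part of that density was not tested either. Intervals of shares here and below cover counting error only. The window was in part picked for these overlaps, and no difference in share was tested.

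Overlapping pairs were not closer in the locus than in the whole list. Centre to centre, the 37 Shox2 peaks lay at a median of 204 bp (quartiles 107 and 314 bp, range 23 to 1109 bp) from their Pbx peak, and the 8999 such peaks of the whole list at 142 bp (63 and 289 bp). Of the 37 Shox2 peaks, 30 (81.1%) lay wholly inside Pbx peaks, against 87.5% of the 8999. These values are bounded by the peak widths, since only overlapping peaks enter them. From the side of Pbx, 28 of 37 peaks (75.7%, interval 58.8 to 88.2%) met a limb Shox2 peak, against 23.4% of the whole Pbx list. The share depended on the overlap rule: it was 48.6% in the locus and 16.3% in the list with every peak set to 200 bp, and 37.8% and 6.13% when at least 50% of the Pbx peak had to be covered. High values were also found in the 3 other windows of 1.3 Mb richest in limb Shox2 peaks, with 69.2%, 55.4% and 69.6%. Limb Shox2 peaks covered 3.21% of the locus and 0.418% of the genome span, and the part of this density in the share was not tested. Of the 28 Pbx peaks, 21 met 1 Shox2 peak, 5 met 2 and 2 met 3. The share that met 2 or more was 18.9% (7 of 37, interval 7.96 to 35.2%) in the locus and 2.83% in the whole list. The pair of Pbx peaks with 3 Shox2 peaks each were chr3:66761833-66764494, described above, and chr3:66504599-66506383, 275 kb below the gene.

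Of the 9 Pbx peaks that met no limb Shox2 peak, 4 lay within 1 kb of one, the nearest at 72 bp. The share within 1 kb over the whole Pbx list is not given here, so that count only describes the locus. The 9 Pbx peaks off Shox2 were narrower and stood lower in the Pbx list than the 28 on Shox2. Their median widths were 853 and 1203 bp and their median places 43.7% and 21.3%. The whole Pbx list showed the same order, with 853 and 1068 bp and places of 54.9% off Shox2 and 33.0% on it. The most isolated Pbx peak, chr3:67274151-67274873, was 49.7 kb from the nearest limb Shox2 peak and was the last Pbx peak of the window.

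**Figure D4:**
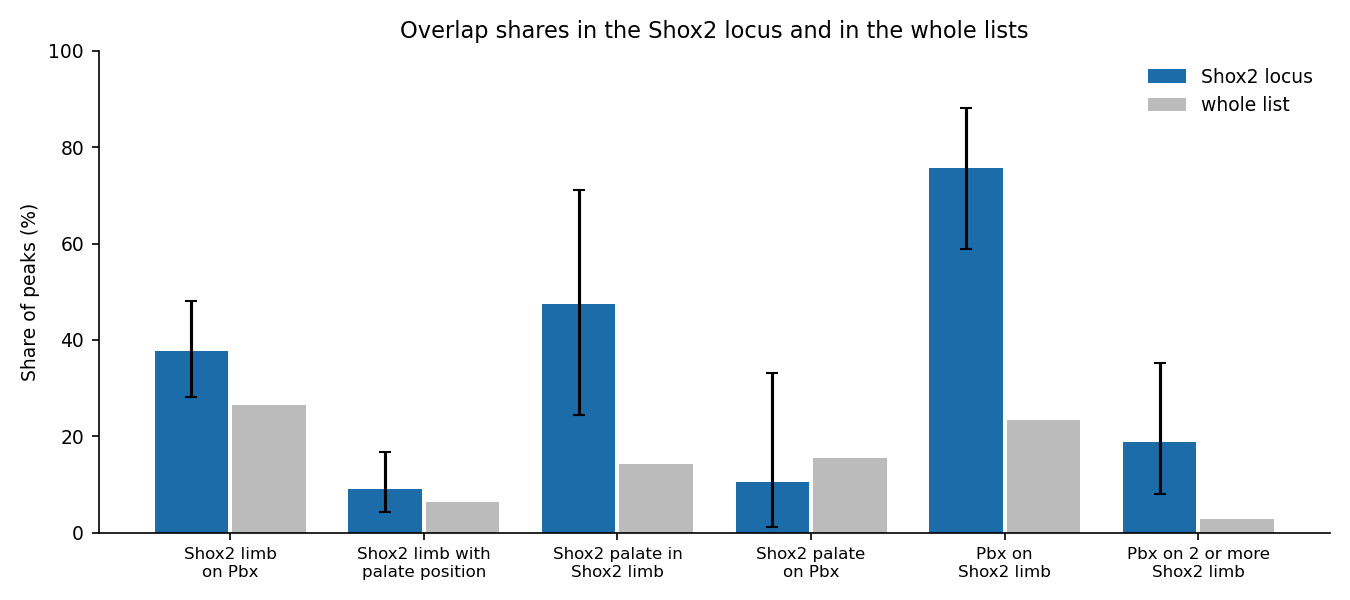
Share of peaks (y axis, percent) that overlap another list by at least 1 bp, in the Shox2 locus (blue, with 95% exact binomial intervals) and in the whole list (grey). Pbx on limb Shox2 shows the widest gap, with 75.7% in the locus and 23.4% in the whole list, and palate Shox2 on Pbx is lower in the locus, with 10.5% and 15.6%.

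The limb Shox2 peaks highest in the file were on Pbx. The 5 highest were chr3:66136019-66136578 (line 43), chr3:66177628-66179303 (line 131), chr3:66204742-66205374 (line 152), chr3:66658058-66659183 (line 176) and chr3:66118708-66119827 (line 350). Of these, 4 lay 575 to 661 kb below the gene and 1 lay 121 kb below it, so the top of the list did not coincide with the surroundings of the gene. All of the first 10 limb peaks of the locus, down to 4.60% of the list, overlapped Pbx. Peaks on Pbx were also the larger part of the top of the whole list. Its first 10% held 1895 peaks on Pbx and 1496 off it, of which 16 and 3 were in the locus. Peaks on Pbx had a median place of 11.0% and a median width of 512 bp, and the 61 off Pbx had 51.3% and 303 bp. In the whole list the medians were 33.6% and 326 bp on Pbx, and 55.0% and 245 bp off it. In the first 10% of the list stood 43.2% of the locus peaks on Pbx and 4.92% of those off it, against 21.1% and 6.00% in the whole list.

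The 3 widest limb Shox2 peaks were chr3:66177628-66179303 with 1676 bp, chr3:66547846-66549414 with 1569 bp and chr3:66377634-66378876 with 1243 bp. The first and second were on Pbx, and the third was off Pbx but held a palate position. Among Pbx peaks, the highest in the file was chr3:66204385-66205887 (line 165), which covers the limb Shox2 peak on line 152. It was followed by chr3:66177403-66180057 (line 554, 2655 bp wide), chr3:66504599-66506383 (line 1272), chr3:66541792-66544233 (line 1864, 2442 bp wide) and chr3:66761833-66764494 (line 2837). All 5 met limb Shox2 peaks, as did 75.7% of all Pbx peaks of the locus and 23.4% of the whole Pbx list. The first and second of the 5 covered 2 of the 3 limb Shox2 peaks that stood highest.

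**Figure D5:**
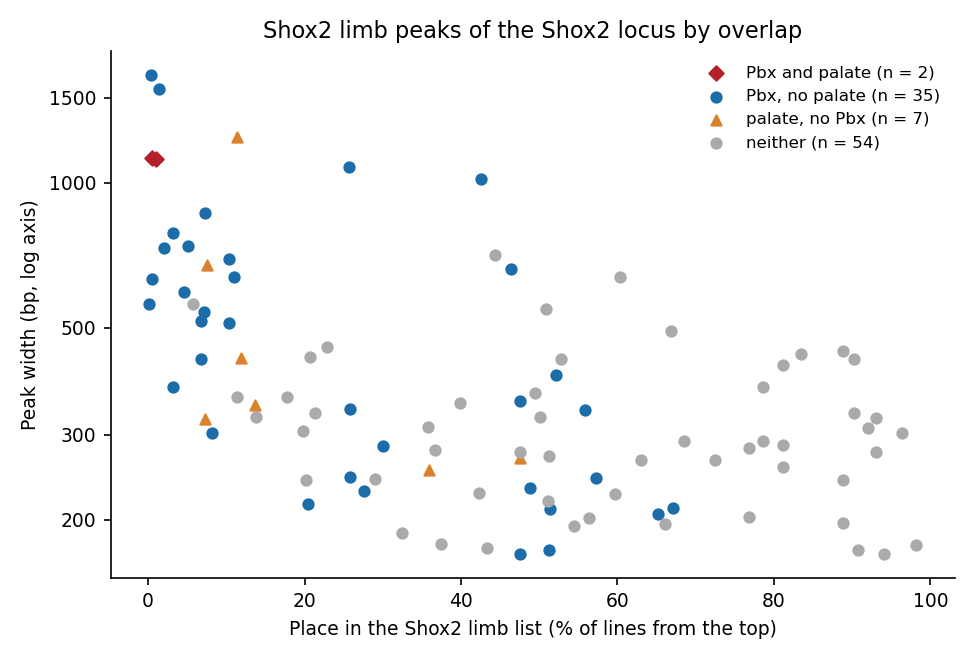
The 98 limb Shox2 peaks of the locus by place in the limb list (x axis, percent of lines from the top) and width (y axis, bp on a log axis), marked by overlap with Pbx and palate positions. The left edge is taken by wide peaks on Pbx, while the 54 peaks with neither overlap have a median place of 58.0% and a median width of 291 bp.

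Palate positions of the locus lay in limb Shox2 peaks more often than those of the whole palate list. Of the 19 palate positions, 9 (47.4%, interval 24.4 to 71.1%) lay in a limb Shox2 peak, against 14.2% of the palate list. Limb Shox2 peaks covered 3.21% of the locus and 0.418% of the genome span, and the part of this density in the share was not tested. The 9 positions fell in 9 limb peaks, 9.18% of those in the locus (interval 4.29 to 16.7%). In the limb list the share was 6.28%, which that interval includes. With each peak set to 200 bp, 36.8% of palate positions in the locus and 14.9% in the list met a limb peak. The 9 shared sites spanned the stretch from 661 to 112 kb below the gene, and 0 lay within 100 kb of it.

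Of the 10 palate positions outside limb peaks, 5 lay within 500 bp of one, at 60 bp (66389891 bp), 148 bp (66310237 bp), 245 bp (66616814 bp), 388 bp (66550836 bp) and 461 bp (66774090 bp). The share within 500 bp over the whole palate list is not given here, and limb peaks were 5.74-fold denser in the locus than elsewhere. These near positions are therefore a description of the locus only. The other 5 positions outside limb peaks were 4.70 to 7.64 kb away. Of these 5, the positions 66624959 and 66625351 bp, which are 155 kb below the gene, were among the 5 highest palate positions of the locus in the file, on lines 1386 and 826. The other 3 of the highest 5, at 66466588, 66388904 and 66566539 bp, were in limb peaks. The highest palate sites of the locus thus included a place with no limb peak within 7 kb. Absence from a list does not show that a site was unbound, since the cutoffs of the lists were not given in the sources used here.

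Overlap of palate Shox2 with limb Pbx was not more frequent in the locus. A Pbx limb peak contained 2 of the 19 palate positions (10.5%, interval 1.3 to 33.1%), against 15.6% of the palate list, and the interval includes that share. These were 2 of the 37 Pbx peaks (5.41%, interval 0.661 to 18.2%), against 6.62% of the Pbx list. Among the 9 palate positions shared with limb Shox2, 7 were off Pbx and 2 on it. Of the 2150 shared positions of the whole list, 36.4% were on Pbx. With only 9 positions in the locus, no difference from that share can be read. Pbx was profiled in limb only, so these shares set palate Shox2 against limb Pbx.

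Both of those positions marked sites found in all 3 lists, and the locus held no others. The first was the limb Shox2 peak chr3:66118708-66119827 (1120 bp, line 350), 661 kb below the gene, on the Pbx peak chr3:66118694-66119953 (line 8813) and with the palate position 66119375 bp (line 4543). The second was the limb Shox2 peak chr3:66658058-66659183 (1126 bp, line 176), 121 kb below the gene, on the Pbx peak chr3:66658178-66659109 (line 26660) and with the palate position 66658676 bp (line 11012). Both stood within the first 1.03% of the limb list, but at 26.0% and 78.6% of the Pbx list and at 30.1% and 73.0% of the palate list. Sites in all 3 lists made up 2.04% of the limb peaks of the locus (2 of 98, interval 0.248 to 7.18%) and 2.3% of the limb list.

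The 7 limb peaks with a palate position and no Pbx were chr3:66377634-66378876, chr3:66388784-66389457, chr3:66466347-66466692, chr3:66467887-66468140, chr3:66566204-66566636, chr3:66617059-66617382 and chr3:66668306-66668574. They lay 402 to 112 kb below the gene, so that none was within 100 kb of it. Their median place in the limb list was 11.9%, with a range of 7.22 to 47.6%. The other 54 limb peaks (55.1%) met neither list, against 69.5% of the whole limb list.

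Limb Shox2 peaks of the locus came in groups. The gap between neighbouring peaks had a median of 3791 bp (quartiles 433 and 14346 bp), and 31 of 97 gaps (32.0%) were under 1 kb. Over the whole list the median gap was 26783 bp and 10.4% of gaps were under 1 kb. Limb Shox2 peaks were 5.74-fold denser in the locus, and denser peaks have shorter gaps by construction. The part of this density in the difference was not tested, so the gaps only describe the locus. Joined across gaps of up to 5 kb, the 98 peaks formed 45 groups, of which 23 held 2 or more peaks with 76 peaks in all, and 22 were single peaks. The 2 largest groups had 6 peaks each, from 66454824 to 66468140 bp and from 66739106 to 66743991 bp. The first of these held 2 of the 9 peaks shared with palate and 1 peak on Pbx, and the second held 0 shared with palate and 2 on Pbx.

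The window's edges were not set by gaps in the lists. The limb Shox2 peaks next to the lower edge were 9.82 kb inside and 2.8 kb outside it, and those next to the upper edge were 132 kb inside and 25.1 kb outside. For palate Shox2 the nearest positions were 119 kb inside and 64.2 kb outside the lower edge, and 526 kb inside and 150.1 kb outside the upper edge. Pbx peaks lay 40.6 kb inside and 2.72 kb outside the lower edge, and 25.5 kb inside and 25 kb outside the upper edge.

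The 3 other windows of 1.3 Mb richest in limb Shox2 peaks were set beside the locus. With 102, 92 and 87 limb peaks, they were found on chromosome 18 (54.4 to 55.7 Mb), chromosome 14 (22.8 to 24.1 Mb) and chromosome 3 (39.1 to 40.4 Mb). Palate positions numbered 19 in the Shox2 locus and 29, 17 and 26 in these windows. Pbx peaks numbered 37 in the locus and 39, 65 and 23 in the others.

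The share of limb Shox2 peaks on Pbx was 37.8% in the locus, within the range of the other windows, which had 34.3%, 47.8% and 20.7%. The share of Pbx peaks on limb Shox2 was 75.7% in the locus (interval 58.8 to 88.2%), above the 69.2%, 55.4% and 69.6% of the others (intervals 52.4 to 83.0%, 42.5 to 67.7% and 47.1 to 86.8%), and each of these intervals overlaps that of the locus. Palate positions lay in limb Shox2 peaks at 47.4% in the locus and 48.3%, 23.5% and 15.4% in the others. Palate positions lay on Pbx at 10.5% in the locus (2 of 19), against 41.4% on chromosome 18 (12 of 29, interval 23.5 to 61.1%), 17.6% on chromosome 14 (3 of 17) and 0% on chromosome 3 (0 of 26). Sites in all 3 lists numbered 2 in the locus and 10, 1 and 0 in the others. The locus had fewer sites in all 3 lists than the chromosome 18 window of similar limb count. No difference between these windows was tested.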

How the data were processed

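The tools named are Bowtie and MACS2 and the build is mm9, per the submitters' processing notes. Versions, peak settings, cutoffs and the meaning of the line order were not given in the sources used here. Deposited peak lists hold a chromosome, a start and an end, and are printed here with 1-based starts. All 15091 palate entries are 1 bp wide, so a palate entry overlaps a peak when it lies inside it.

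Members are peaks with midpoints in the window. The window, gene position and comparisons were chosen with earlier results of these data known. Sites were named by rule: those in all 3 lists, the 5 highest in file order per list, the 3 widest of each limb list, the nearest to the gene and the densest bins of 50 kb. Other sites were named after their values were seen, as were the distances of 10 kb, 50 kb, 500 bp and 1 kb, and the 5 kb for joining peaks. Overlap meant at least 1 bp. Density used the 2575 Mb spanned by peaks. Intervals are 95% exact (Clopper-Pearson or Poisson). No test was run, since each group has 1 library. The overlap code was tested on samples of the deposited peaks with added intervals at known places, against a direct count. No mm9 genome or annotation was used, and no coordinates were converted. Python 3.11.15, NumPy 2.4.6, pandas 2.3.3, SciPy 1.17.1 and matplotlib 3.10.9 were used.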

Additional observations from a re-analysis of the deposited data

How the results depend on the processing

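Of 36 alternative values, 27 stayed within the 95% interval of the reported value (or, for the count of sites in all 3 lists, within 1.5 times it) and 9 did not. With every peak set to 200 bp, 18.4% of limb Shox2 peaks of the locus lay on Pbx and 48.6% of Pbx peaks on limb Shox2, against 16.4% and 16.3% in the whole lists. Requiring 50% of the Pbx peak to be covered by Shox2 left 37.8% in the locus and 6.13% in the whole list. Sites in all 3 lists fell to 1 when the first 50% of each list was used and to 1 within 250 kb of the Shox2 position. The density of limb Shox2 was 7.08-fold that of the rest of the genome from 66 to 67 Mb, and 4.39-fold against the rest of chromosome 3. The density of Pbx was 3.16-fold with the first 50% of the list and 3.28-fold with its first 15091 peaks. Smaller stretches and shorter lists have fewer peaks by construction, and the cause of the other shifts was not tested. No paired analysis was possible because every group consists of 1 library, which also means that none could be left out. With depth unknown, an unlisted site and one just under the cutoff cannot be told apart.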
